A study of Mus musculus with 103 samples.

Results

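RNA of young mouse muscle stem cells was sequenced in 2 formats, which are set side by side here: 3 bulk libraries, each of many cells, from 3 mice per the design text, and 54 single-cell wells of 1 young mouse. The libraries described are 57 of the 103 in the series. Of the 64 wells of the young mouse, the 54 with at least 1000 Ensembl genes at 1 TPM or more were used. TPM is a gene's share of the transcripts of its library, corrected for transcript length. Before any comparison the spike-in RNA and the genes of the mitochondrial genome were removed and each library was rescaled to the same total. Genes were then chosen by the values themselves: those whose mean reached 20 TPM in one format and lay under 1 TPM in the other. That rule gave 1044 genes that were abundant in bulk and absent in wells, 2.41% of the 43245 genes analysed, and 302 that were abundant in wells and absent in bulk, 0.698%. Absent means a mean under 1 TPM throughout, and a gene is found in a library where it has 1 TPM or more. As the format difference chose these genes, their levels are a description and carry no test. The 2 tables were also normalized separately, and the comparison is of 3 mice with 1 mouse, for which no permutation of mice can give a one-sided p below 0.25.

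The mice were C57BL/6, labelled untreated. The age of the young bulk libraries is 3 months in the labels' age field and 2 months in their descriptions, and the age of the young wells is 3 months. The old libraries came from mice of 24 months: 3 bulk libraries, and 7 wells of 1 mouse that passed the same minimum out of 31. The bulk libraries of 12 and 13 months are used in counts alone. The source is named muscle stem cell in the labels and myoblast in the design text. The protocols name growth in a medium with fibroblast growth factor 2 and do not say whether RNA was taken before or after it. The sources used here give no sort gate. The same protocol, with RNA from 5000 to 10000 cells per library, stands in the labels of the wells too, so how the wells were prepared is not known here.

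Muscle stem cells, or satellite cells, sit between a muscle fibre and its basement membrane and are kept quiescent by Notch signalling and cell cycle inhibitors. They are marked by the transcription factor Pax7, and the list of identity genes used here holds Myf5 too. They turn on Myod1 as they commit to myogenesis, and Myog as they differentiate. Transcript levels from many cells average over the cells and over any other cell type in the sample, while a single cell shows which transcripts were caught together in it.

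Both formats carried the labelled cell's markers. All 17 genes of the satellite cell identity list were found at a mean of 1 TPM or more in bulk and 16 in wells. Pax7 was at 495, 515 and 412 TPM in the 3 bulk libraries, a mean of 474 ± 54.3 (SD, n = 3), and in the wells at a lowest of 0, a median of 24.5 and a highest of 1121 TPM, found in 38 of 54. Myf5 was at 243, 523 and 436 TPM in bulk and at a median of 1482 TPM in wells, found in 50 of 54. The bulk levels of both genes lay inside the range of the wells. Myog was listed at 0 in all 54 wells and in 2 of the 3 bulk libraries.

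The libraries differed in more than their cell number. The bulk libraries held 16506, 12849 and 14559 genes at 1 TPM or more, and the wells between 1127 and 3621, with a median of 1934. In the bulk columns as deposited, mitochondrial genes took 37.7% to 39.9% and spike-in RNA 0%. In the wells mitochondrial genes took 1.03% to 9.14% and spike-in RNA 38.2% to 79.3%. No 2 wells held identical values. Over the 21446 genes whose mean reached 1 TPM in either format, log2(TPM + 1) of the bulk mean and of the mean over wells correlated at Pearson's r = 0.564 and Spearman's rho = 0.504, across genes, which are not independent replicates. Pairs of bulk libraries correlated at r = 0.385 to 0.438, each over the 17354 to 19488 genes at 1 TPM or more in either library of the pair. Taken singly, the 3 bulk libraries correlated with the mean over wells at r = 0.416, 0.291 and 0.388. The 0.564 is between 2 means, so it is not like the values of single libraries. Read counts cannot be obtained from TPM, so the depth behind a bulk value is unknown.

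**Figure D1:**
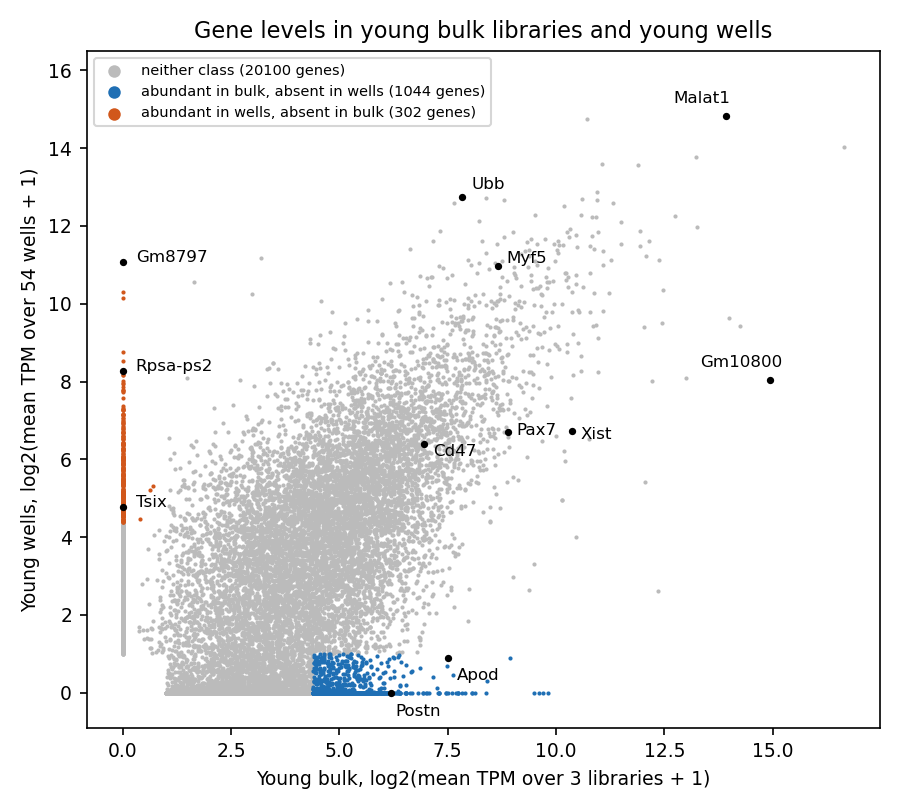
Each point is a gene, with log2(mean TPM + 1) over the 3 young bulk libraries on the x axis and over the 54 young wells on the y axis. The 1044 genes abundant in bulk and absent in wells lie along the x axis, and the 302 genes abundant in wells and absent in bulk along the y axis. Both were chosen by these 2 values.

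The genes abundant in wells and absent in bulk were led by copies of other genes. A processed pseudogene is a copy of a gene's messenger RNA that was written back into the genome, without introns, and a short read from the parent can match both. Of the 302 genes, 104 (34.4%) were processed pseudogenes, 101 (33.4%) protein-coding genes and 70 (23.2%) short noncoding RNAs. Among the genes abundant in wells and not absent in bulk, processed pseudogenes made up 8.14%, protein-coding genes 88.3% and short noncoding RNAs 0.376%. The sequences of 3 such genes are shown beside those of their parents because each, found in 40 wells or more, differs at few bases from a coding gene that was read in both formats. They are stretches of 120 bases read 5′ to 3′ from GENCODE vM21 transcripts (GRCm38, the build also called mm10), and capitals mark the bases at which the copy and the parent differ.
Rpsa-ps2: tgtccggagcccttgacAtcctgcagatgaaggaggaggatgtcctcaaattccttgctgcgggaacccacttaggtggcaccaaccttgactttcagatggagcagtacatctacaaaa
Rpsa: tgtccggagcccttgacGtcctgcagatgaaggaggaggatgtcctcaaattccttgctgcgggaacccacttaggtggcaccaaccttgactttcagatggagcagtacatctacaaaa
Gm8797: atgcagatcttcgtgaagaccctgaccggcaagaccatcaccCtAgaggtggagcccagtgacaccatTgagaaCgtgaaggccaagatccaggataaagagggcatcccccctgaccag
Ubb: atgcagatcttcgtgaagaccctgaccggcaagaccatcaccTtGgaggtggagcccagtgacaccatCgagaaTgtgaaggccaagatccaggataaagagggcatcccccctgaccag
Rps23-ps2: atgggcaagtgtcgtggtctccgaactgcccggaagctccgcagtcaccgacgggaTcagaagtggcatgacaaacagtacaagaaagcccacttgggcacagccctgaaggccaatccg
Rps23: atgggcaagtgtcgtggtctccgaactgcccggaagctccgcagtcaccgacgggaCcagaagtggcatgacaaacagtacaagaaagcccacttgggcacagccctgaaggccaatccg
The stretch of Rpsa-ps2, a processed pseudogene at chr10:128776371-128777250 on the minus strand, differs from Rpsa (chr9:120127689-120132369, plus strand) at 1 of 120 bases. Gm8797 (chr3:5750806-5751295, plus strand) differs from the polyubiquitin gene Ubb (chr11:62551171-62553213, plus strand) at 4 bases. Rps23-ps2 (chr8:3583799-3584230, minus strand) differs from Rps23 (chr13:90922958-90924950, plus strand) at 1 base.

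Rpsa-ps2 was listed at 0 in all 3 bulk libraries and was found in all 54 wells, at a lowest of 59.5, a median of 286 and a highest of 764 TPM. The formats did not overlap for it, which the choice of genes by these values favours. How many of all genes had formats that did not overlap was not counted. Its parent Rpsa, which encodes a protein of the small ribosomal subunit that is also known as the laminin receptor, was at 127, 86.1 and 89.7 TPM in bulk and at a median of 685 TPM in wells, found in all 54. The parent was thus read in both formats and the copy in one. Over its whole transcript Rpsa-ps2 matched Rpsa at 98.8% identity, and 59.4% of its windows of 75 bases, the length of the reads per the labels, occur word for word in another annotated transcript. Other copies of this gene are less alike: Rpsa-ps5, at 92.4% identity, was found in 53 wells and Rpsa-ps11, at 95.7%, in 51, both at 0 in every young bulk library.

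Gm8797 is annotated as protein-coding and its transcript repeats ubiquitin's coding sequence. It was listed at 0 in all 3 bulk libraries and found in 53 of 54 wells (98.1%, exact Clopper-Pearson 95% interval 90.1 to 100%), with a median of 1671 and a highest of 7028 TPM. At a mean of 2133 TPM over wells it had the highest level of the 302 genes. Ubb itself was at 266, 227 and 191 TPM in bulk and at a median of 5277 TPM in wells, so the gene and its look-alike were both high in wells. The best match of Gm8797 was another gene model, Gm1821, with 98.7% identity over 80% of the transcript. Gm1821 had a mean of 8.08 TPM in bulk and 2320 TPM in wells. Ubb matched Gm8797 over 78.2%, short of the 80% asked of partners below. Rps23-ps2, whose parent encodes a protein at the decoding centre of the ribosome, was found in 40 wells at a median of 41.8 TPM over all 54. Rps23 differed from the other 2 parents, with 585, 1006 and 1152 TPM in bulk against a median of 396 TPM in wells.

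Of the 300 members with a transcript in the annotation, 127 (42.3%) matched another gene's transcript over at least 80% of their length at 95% identity or more. Matches on either strand were counted, so some partners are antisense genes of the same place, such as Zfp36l1 for Gm26669. The search was run on the members alone, so no share of other abundant genes stands beside these shares. Among the 155 members found in at least 10% of the wells, of which 153 had a transcript, it was 88 (57.5%). It was 74 of the 104 processed pseudogenes (71.2%) and 11 of the 101 protein-coding members (10.9%). For 95 members a protein-coding gene was matched, 81 distinct genes in all. The partner of 84 of these members had a mean of at least 1 TPM in bulk, and that of 17 encodes a ribosomal protein. Over the 95 members the median identity was 99.3%, and the median level of the partner was 62.6 TPM in bulk and 100.5 TPM in wells. How the authors' tool assigned reads that match 2 genes is not given in the sources used here, so the level of each such member is uncertain, in bulk and in wells alike. Whether read assignment differed between the formats was not tested.

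Small RNAs inside other genes made up another share of the class. Gm22133 is annotated as a short RNA of 109 bases that lies wholly inside Ftl1, the gene of the ferritin light chain, on the same strand (chr7:45458089-45458197 within chr7:45457944-45459884). It was listed at 0 in all 3 bulk libraries and found in 34 wells (62.96%) at a median of 721 and a highest of 5871 TPM over the 54. Every window of 75 bases in Gm22133 also occurs in Ftl1, which was at 427, 205 and 316 TPM in bulk and found in 52 wells. Levels of such short gene models are raised by the division by length, so a few reads give a high TPM.

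The microRNA gene mmu-mir-703 was listed at 0 in bulk and found in 28 wells (51.9%), with a highest value of 5420 TPM. Its gene model matched Eef1a1, the elongation factor that brings transfer RNA to the ribosome, over its whole length at 98.2% identity. The kits in the labels make libraries from long RNA, and a value for this gene model is not a measurement of the mature microRNA. That mature RNA (RefSeq, GRCm38.p6, chr5:98475616-98475636, minus strand) is shown with its seed, bases 2 to 8, in capitals, because this gene model was read in 28 wells under a microRNA's name.
mmu-miR-703: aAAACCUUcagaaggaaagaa
Of the 70 short noncoding members 35 (50.0%) had a partner under the same rule. The snoRNA Snord22 matched the longest annotated transcript of its host Snhg1 over 100% of its length at 100% identity. Snord22 was at 0 in bulk and reached 5934 TPM in 1 of the 6 wells that held it. Gm26049 and Gm25047 were found in 5 and 2 wells, with highest values of 11698 and 12276 TPM, so their means of 367 and 255.8 TPM rest on few cells.

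The 101 protein-coding members included genes of functions that every cell uses. Snrpd2, a core protein of spliceosomal particles, was listed at 0 in all 3 bulk libraries and found in 24 of 54 wells (44.4%, interval 30.9 to 58.6%), with a highest of 1903 TPM. Ndufs5, a subunit of respiratory complex I, was listed at 0 in the 3 bulk libraries and found in 17 wells with a mean of 84.5 TPM. Timm23, a channel of the mitochondrial inner membrane, was at 0 in bulk and found in 22 wells. The annotation holds a near copy of Timm23, Gm10273, with 99.9% identity over 95.6% of the transcript, and that copy had 66.5 TPM in bulk and 284.5 TPM in wells.

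For other coding members no partner was found. Phpt1, a phosphohistidine phosphatase, was found in 18 wells at a mean of 74.7 TPM. Tspo, the translocator protein of the outer mitochondrial membrane, was found in 15 wells at a mean of 54.7 TPM, and Dpm3, a subunit of the enzyme that makes dolichol phosphate mannose, in 14 wells at a mean of 73.3 TPM. All 3 were listed at 0 in every young bulk library, and all 3 had values in the old bulk libraries, with means of 12.6, 4.21 and 26.8 TPM. An exact 0 of a gene that cells in general use can be a failed estimate in these tables, so the 0 is given as listed. Of the 4824 genes with at least 20 TPM in wells, 6.26% were absent in the bulk mean, and 547, 903 and 668 were listed at 0 in the 3 bulk libraries one by one.

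Some members lay in antisense to other genes, though this was not particular to the class. Of the 300 annotated members 33.3% overlapped a gene on the other strand. Among the genes abundant in wells and not absent in bulk, 42.4% did. Tsix, the antisense transcript that overlaps Xist over 22889 bases on the X chromosome, was at 0 in all 3 bulk libraries and found in 36 wells, at a median of 5.59 and a highest of 196 TPM. Xist, the RNA that coats the silenced X chromosome, was at 638, 2098 and 1225 TPM in the same bulk libraries and at a median of 37.3 TPM in wells, where it too was found in 36 of 54. In 25 wells both were found, and in 7 neither. Gm26669 overlaps Zfp36l1, the gene of an RNA-binding protein that speeds the decay of messages, on the other strand over 4967 bases and was found in 23 wells. Zfp36l1 was at 2667, 4658 and 6969 TPM in bulk. The labels do not say that counting used the strand, and without it reads from a gene and its antisense partner cannot be told apart.

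Within the class, a mean was often made by few cells. The 302 genes were found in a median of 6 wells each. Of them 47 were found in 1 well, 100 in 2 to 5 wells, 155 in at least 10% of the wells and 33 in more than 27 wells. For 136 members over 50% of the level summed over wells came from 1 well, while this held for 12 of the 155 found in at least 10% of wells. Without the highest well of each gene the class held 159 genes, without bulk library 1 it held 460, and with TPM as deposited 104. All but 3 members were listed at 0 in all 3 bulk libraries, and 121 were at 0 in all 8 bulk libraries of the series. Each well held 29 to 97 members, with a median of 57, which took 1.08% to 4.21% of its rescaled TPM.

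**Figure D2:**
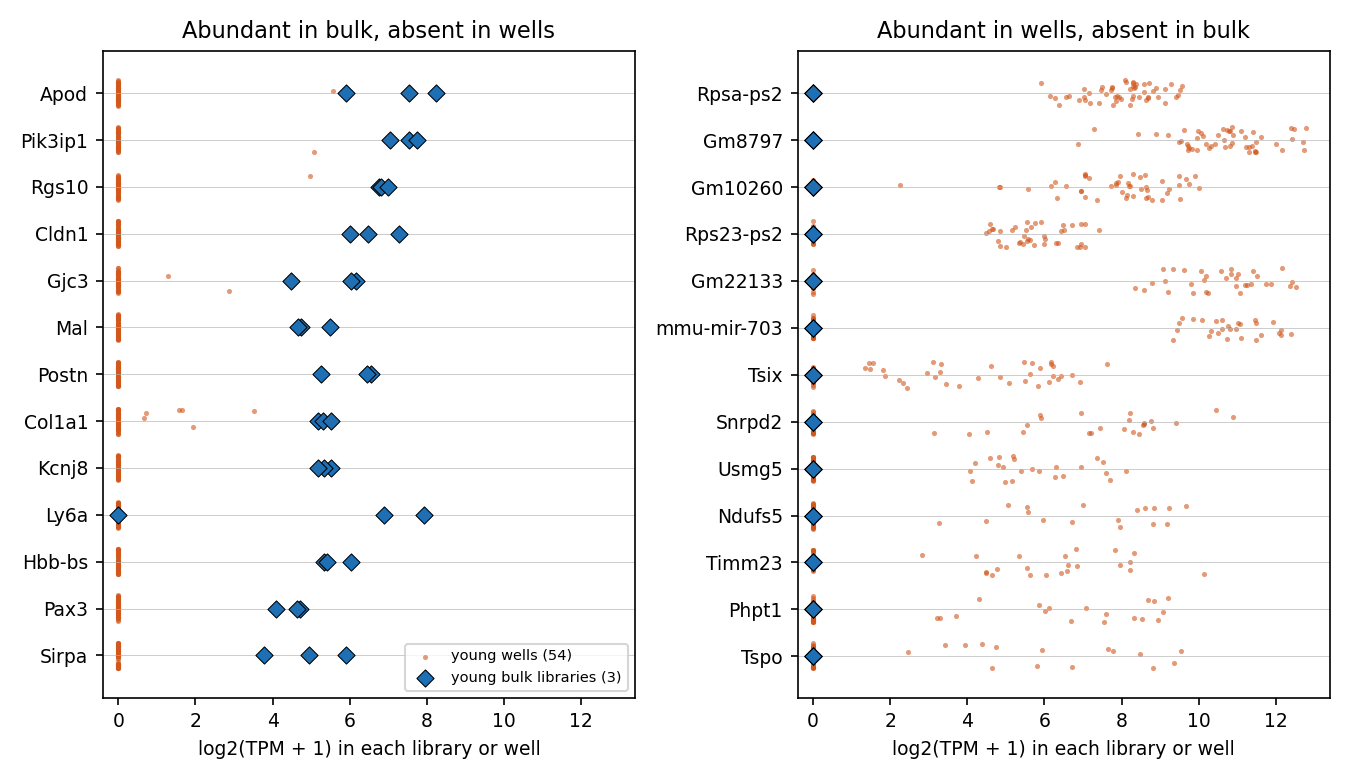
Rows are members of both classes, and marks give log2(TPM + 1) in each library, with diamonds for the 3 young bulk libraries and dots for the 54 young wells. Rpsa-ps2 has all 54 wells above 0 and all 3 bulk libraries at 0, while Postn has all 3 bulk libraries above 0 and all 54 wells at 0.

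Of the 1044 genes abundant in bulk and absent in wells, 596 (57.1%) were protein-coding and 199 (19.1%) processed pseudogenes. Another 137 (13.1%) were long noncoding RNAs or unconfirmed transcripts and 42 (4.02%) short noncoding RNAs. Among the genes abundant in bulk and not absent in wells, protein-coding genes made up 90.0% and processed pseudogenes 6.48%. Long noncoding RNAs or unconfirmed transcripts made up 2.47% there and short noncoding RNAs 0.369%. Of the 6459 genes with at least 20 TPM in bulk the 1044 made up 16.2%. The 3 bulk mice did not agree on all of them. In all 3 bulk libraries 648 members (62.1%) were found, in 2 libraries 183 and in 1 library 213. Of all genes with at least 20 TPM in the bulk mean, 5615 (86.9%) were found in all 3. The 4 highest means, of Mir6236, Snora24, Gm25422 and Gm24106, came each from 1 library, with 2717, 2474, 2321 and 2171 TPM there and 0 in the other 2. The account that follows keeps to members found in all 3 libraries unless it says otherwise.

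In the wells, 713 of the 1044 were found in none, 178 in 1 well and 153 in 2 or more, at most 13. By counting error alone, a gene found in 0 of 54 wells may reach 1 TPM in up to 5.56% of such wells. This bound, 3 divided by the number of wells, is an approximate 95% limit. It limits wells in which the gene is read, not cells that express it. Absence was most frequent at low level: 24.1% of genes at 20 to 50 TPM in bulk were absent in wells, 8.31% at 50 to 100 TPM, 3.07% at 100 to 200 TPM, 3.31% at 200 to 500 TPM, 4.04% at 500 to 1000 TPM and 0 of the 93 genes at 1000 TPM or more. The median bulk level of the members was 28.3 TPM. Without the highest well of each gene the class held 1605 genes, and with TPM as deposited 541. Whether the members are missing because a cell's rare transcripts were not caught, or because the cells lack them, was not tested.

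**Figure D3:**
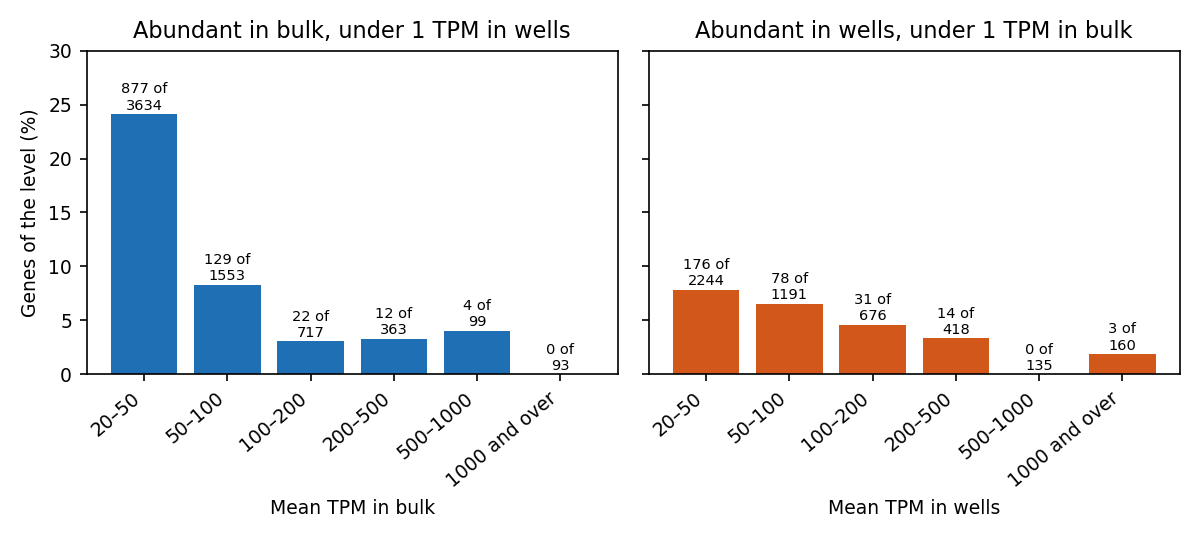
Genes are grouped by their mean TPM in one format, and the y axis gives the percent of each group that was absent (mean under 1 TPM) in the other format, with the number of genes. The percent of bulk genes absent in wells goes from 24.1% at 20 to 50 TPM to 0 at 1000 TPM or more, and that of well genes absent in bulk from 7.84% to 1.88%.

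Genes of peripheral nerve were among the members. Mal, a raft protein of myelin, was at 25.9, 24.4 and 44.2 TPM in bulk, and Mbp, the basic protein that compacts myelin, at 12.9, 42.3 and 5.74 TPM, both with 0 wells. For Mal and Mbp every bulk library was above every well, which follows once every well is at 0.

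They are among 4 members on a list of 12 Schwann cell markers, of which 6 had at least 20 TPM in bulk, beside 16.2% of all such genes. The other 2 of the 6 were read in wells: Pmp22 in 32 wells and Ncam1, an adhesion molecule that satellite cells also make, in 51. Of the 12, 7 were found in 0 wells, as were 29569 of all 43245 genes. Of the 6 with at least 20 TPM in bulk, 3 were, beside 713 of 6459 such genes. The summed level of the list was 1492, 3367 and 2531 TPM in the bulk libraries and 0 to 3698 TPM, with a median of 150 TPM, in wells, most of it Pmp22. Gjc3, a connexin of myelinating glia, and Apod, a lipid-binding lipocalin of nerve and fibroblasts, are not on the list. Gjc3, chosen after its values were seen, was at 21.5, 70.5 and 64.7 TPM in bulk, with 2 wells above 1 TPM, and Apod, the coding member with the highest bulk mean among those found in all 3 libraries, at 302, 58.5 and 183 TPM, with 1 well at 46.004 TPM. In bulk libraries fewer cells of a type and less RNA per cell cannot be told apart, and the part of other cell types in the bulk values was not tested.

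Matrix genes were split between the formats. Col1a1 and Col1a2, the chains of type I collagen, were at 35.02, 38.6 and 44.4 TPM and at 38.5, 46.1 and 46.8 TPM in bulk, and were found in 4 and 2 wells with highest values of 10.4 and 13.5 TPM. Every bulk library was above every well for both, which the rule favours for genes of the class. Postn, periostin, was at 37.1, 93.0 and 85.7 TPM and Pcolce, an enhancer of collagen processing, at 19.4, 40.9 and 104 TPM in bulk, both with 0 wells. Fn1, fibronectin, was at 29.7, 102 and 29.9 TPM with 2 wells. These last 3 were chosen after their values were seen.

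Other genes of the same fibroblast list of 15 were read in many wells. Dcn, the matrix proteoglycan decorin, had a mean of 467 TPM in bulk and 205 TPM in wells, found in 20. Col3a1 was found in 30 wells, Dpt, dermatopontin, in 37, and Serping1, an inhibitor of complement proteases, in 51. The 3 members on the list were Col1a1, Col1a2 and Ly6a, out of 9 listed genes with at least 20 TPM in bulk, beside 16.2% of all such genes. Ly6a, the stem cell antigen Sca-1, was at 244, 118 and 0 TPM in the 3 bulk libraries, so it rests on 2 of them, and it was found in 0 wells. Of the 15, 5 were found in 0 wells, beside 29569 of all 43245 genes.

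Markers of blood, vessels and immune cells were low in bulk and near 0 in wells. Of 6 red blood cell genes, Hbb-bs, a beta globin, was at 39.3, 41.6 and 64.6 TPM and Hba-a2, an alpha globin, at 96.2, 0 and 13.9 TPM in bulk, both in 0 wells. Lyz2, lysozyme of myeloid cells, was at 34.5, 28.9 and 8.12 TPM and Ptprc, the leukocyte phosphatase CD45, at 8.64, 17.7 and 42.6 TPM in bulk, both in 0 wells. The defining macrophage genes Adgre1, Csf1r, C1qa, C1qb, C1qc and Fcgr3 were at 0 in all 3 bulk libraries. The 12 macrophage markers summed to 46.7, 80.4 and 61.8 TPM in bulk and to 0 in 53 of 54 wells.

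None of 12 endothelial markers reached a mean of 20 TPM in either format. They summed to 34.4, 28.9 and 126 TPM in bulk and to 0 in 48 wells. Of 10 smooth muscle and pericyte markers, 8 of them at 20 TPM or more in bulk, 1 was a member beside 16.2% of all such genes. It was Kcnj8, a potassium channel subunit of mural cells, at 44.6, 39.4 and 35.2 TPM in bulk and in 0 wells. Rgs5, a pericyte regulator of G protein signals, missed the class, with 516 TPM in bulk and 6.94 TPM in wells from 1 well. The contractile genes Tagln and Acta2 were in turn found in 22 and 21 wells, with means of 497 and 324 TPM.

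Few members were on the lists of satellite cell genes. Pax3, the paralog of Pax7 that marks embryonic muscle progenitors and a subset of adult satellite cells, was at 25.3, 16.05 and 23.8 TPM in bulk and in 0 of 54 wells. It was the only one of the 17 identity genes in the class, of which 16 had at least 20 TPM in bulk, beside 16.2% absent among all such genes. That share depends on level, with 24.1% absent at 20 to 50 TPM and 3.31% at 200 to 500 TPM. Of the 16, Pax3 had the lowest bulk mean, 21.7 TPM, while Pax7 was at 474 and Chodl at 1484 TPM. Whether the list differs from other genes of like level was not tested. Of 15 quiescence genes none was a member, and 10 (66.7%) were lower in wells by at least 1 on the log2 scale, beside 65.3% of all genes. Rb1 had the largest such difference, with 85.9 TPM in bulk and 6.06 TPM in wells. The retinoblastoma protein that Rb1 encodes holds cells out of the cycle. The median log2 difference of the 15, wells minus bulk, was -1.58, beside -1.72 over all genes.

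The class also held signalling and transcription genes. Pik3ip1, an inhibitor of PI3 kinase, was at 132, 185 and 214 TPM in bulk and in 1 well at 32.6 TPM. Rgs10, which shortens G protein signals, was at 107, 111 and 126 TPM with 1 well, and Zfp579, a zinc finger protein, at 134, 159 and 159 TPM with 1 well. For all 3 every bulk library was above every well, which the rule favours here too. Id4, an inhibitor of basic helix-loop-helix factors such as Myod1, was at 25.2, 63.9 and 95.3 TPM in 0 wells, while its relative Id3 was at a mean of 141 TPM in bulk and 3154 TPM in wells. Robo1, a receptor of Slit guidance proteins, was found in 3 wells and Ddit4, an inhibitor of mTOR complex 1 induced by stress, in 2, against bulk means of 47.6 ± 12.8 and 46.1 ± 3.93 TPM (SD, n = 3). Id4, Robo1 and Ddit4 were chosen after their values were seen.

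Cd47, a membrane protein that holds off phagocytes and the subject of the study, was read in both formats. It was at 121, 106 and 143 TPM in bulk and was found in 30 of 54 wells, with a median of 3.70 and a highest of 1168 TPM, so the bulk values lay inside the range of wells. Sirpa, its receptor on phagocytes, was the 1 member among the 6 genes of Cd47 and its partners, of which 5 had at least 20 TPM in bulk, beside 16.2% absent among all such genes. It was at 59.2, 30.0 and 12.7 TPM in bulk and in 0 wells. Itgb3, an integrin chain, was in 0 wells too, at a bulk mean of 8.41 TPM, below the minimum.

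Genes best known from other tissues were also among the members. Mucins, the glycoproteins of mucus, had 3: Muc6 at 140, 117 and 19.8 TPM, Muc2 at 90.5, 56.7 and 32.7 TPM and Muc4 at 68.1, 60.04 and 56.5 TPM. These 3 were all of the mucin genes with at least 20 TPM in bulk, beside 16.2% absent among all genes at that level. No well held any of the 13 mucin genes, and 29569 of all 43245 genes were likewise found in 0 wells. Alb, the serum albumin of liver, was at 20.1, 173 and 57.1 TPM in bulk and in 0 wells. Cldn1, a claudin of epithelial tight junctions and of the nerve's perineurium, was at 87.6, 155 and 63.3 TPM and in 0 wells.

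Odorant receptors, the sensors of nasal neurons, were another such family. Of 1257 olfactory receptor genes and pseudogenes analysed, 416, 230 and 353 had at least 1 TPM in the 3 bulk libraries and 8 in any young well. All 49 with at least 20 TPM in the bulk mean were members. Olfr818 was at 106, 60.4 and 22.7 TPM in bulk. Of 538 vomeronasal receptor genes, 106, 65 and 118 had at least 1 TPM in bulk, and all 12 with at least 20 TPM were members, led by the pseudogene Vmn2r-ps17 at 117, 152 and 134 TPM. The 49 and the 12 stand beside 16.2% absent among all genes with at least 20 TPM in bulk. They were counted whether or not a gene was found in all 3 libraries. Of all 1257 olfactory genes analysed, 57 were found in all 3, and of the 538 vomeronasal ones 13. The receptor and mucin lists were made after the values were seen.

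**Figure D4:**
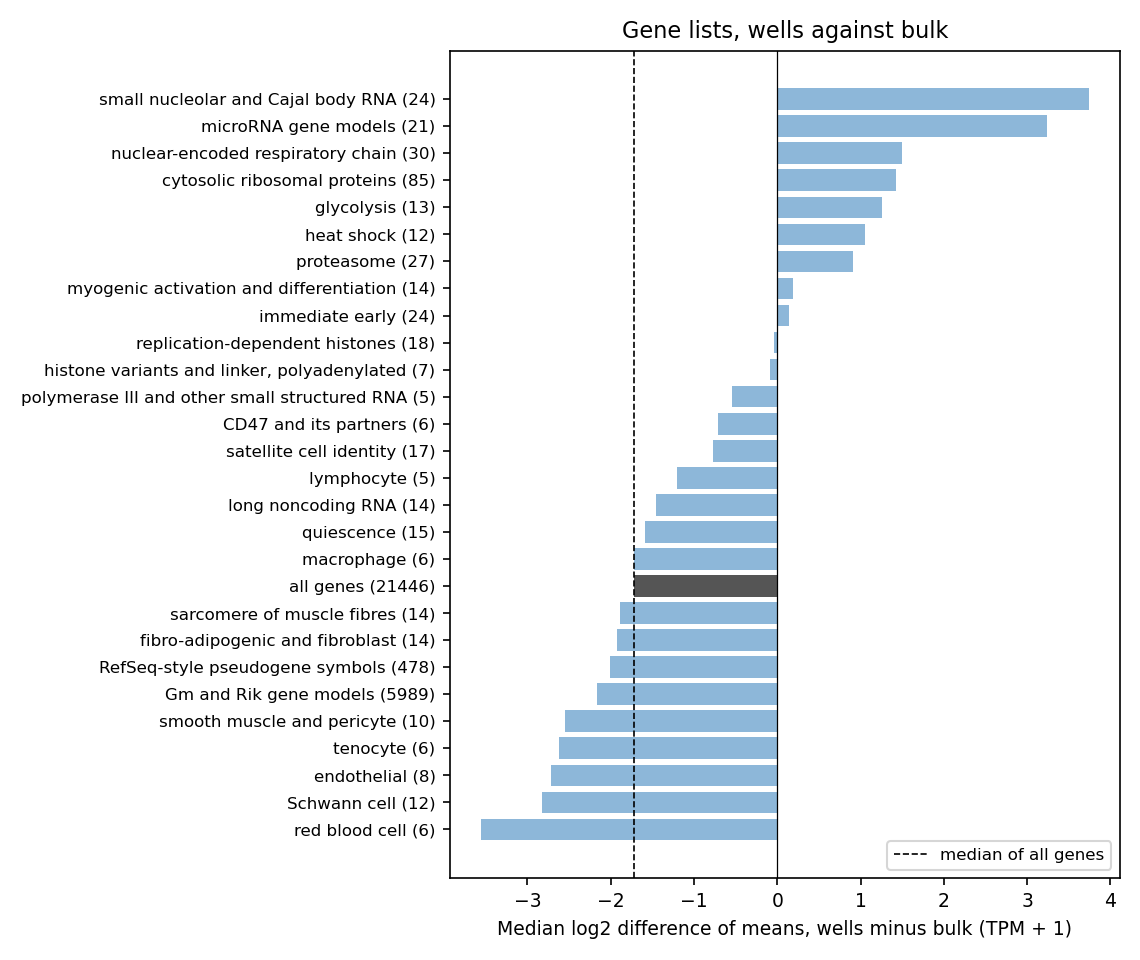
For each gene list bars give the median difference of log2(mean TPM + 1), wells minus bulk, over its genes with at least 1 TPM in either format (number in brackets). The median over all 21446 genes is -1.72. Ribosomal proteins lie at 1.42 and Schwann cell markers at -2.82, while the high medians of small nucleolar RNA and of microRNA gene models are 0.00 without the highest well of each gene.

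The members of both classes differed in length and in exons from other abundant genes. The 300 of the 302 genes with an annotation had a median exon length of 478.5 bases and 64% had 1 exon, beside 4023.5 bases and 10.1% with 1 exon for genes abundant in wells and not absent in bulk. The 1026 annotated ones of the 1044 had a median of 2672 bases and 31.2% with 1 exon, beside 4899 bases and 8.39% for genes abundant in bulk and not absent in wells. Restricting to protein-coding genes left a difference for the first class, with 1654 against 4455 bases, and little for the second, with 4913.5 against 5307 bases. Genes with over 50% of their windows of 75 bases shared with another transcript made up 28.3% of the 300 and 39.9% of the 153 of them found in at least 10% of the wells, beside 9.12% of the genes abundant in wells and not absent in bulk. They made up 8.28% of the 1026, beside 7.63% of the genes abundant in bulk and not absent in wells. Among protein-coding genes these shares were 11.9% beside 3.96%, and 6.71% beside 3.26%.

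**Figure D5:**
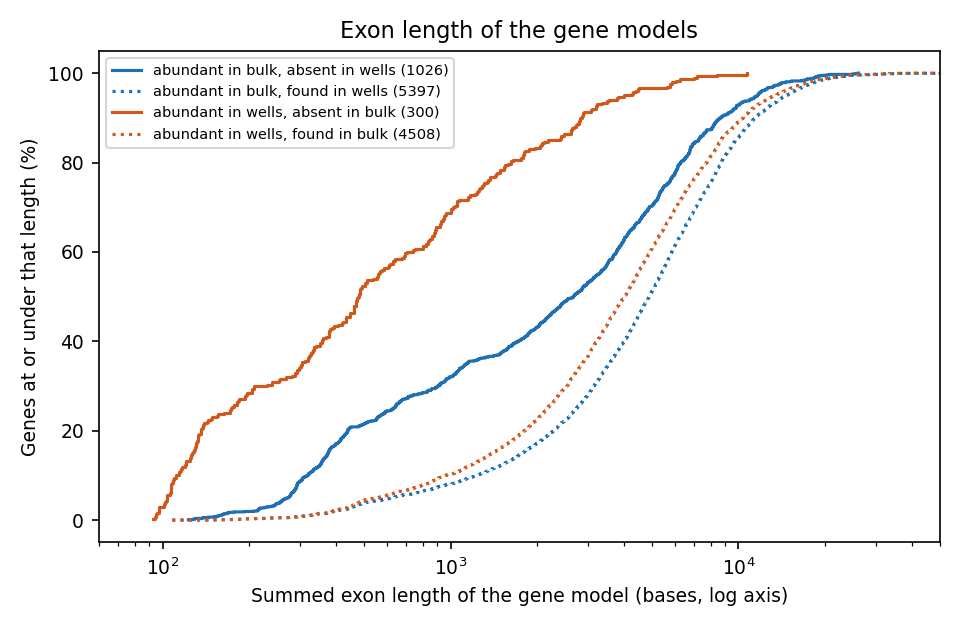
The percent of genes at or under each exon length, in bases on a log axis, is drawn for both classes and for the genes abundant in one format and not absent in the other. The genes abundant in wells and absent in bulk have a median of 478.5 bases, and the genes abundant in bulk and absent in wells one of 2672 bases.

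Outside the 2 classes, 4041 genes had at least 1 TPM in all 3 bulk libraries and in at least 10% of wells, with a mean of 20 TPM or more in one format or both. Among them the largest bulk excess was Gm10800, at 42249, 23124 and 28631 TPM in bulk and at a median of 166 and a highest of 1522 TPM in wells. Every bulk library was above every well. Gm10801, Gm21738, Gm26870 and Gm10717 followed the same order, with bulk means of 4264, 1402, 718 and 251 TPM and well means of 41.8, 15.1, 8.96 and 2.58 TPM. Gm10719 and Gm10722, of the same kind, fell under 1 TPM in wells and so into the class.

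These gene models are repeats. The first 2 units of the Gm26870 transcript (chr9:3000282-3038313, minus strand, GENCODE vM21) are shown because the transcript matches itself best when shifted by 234 bases, the unit length of the mouse major satellite, the DNA of pericentromeric heterochromatin. Capitals mark the 6 bases at which the units differ.
Gm26870 first unit: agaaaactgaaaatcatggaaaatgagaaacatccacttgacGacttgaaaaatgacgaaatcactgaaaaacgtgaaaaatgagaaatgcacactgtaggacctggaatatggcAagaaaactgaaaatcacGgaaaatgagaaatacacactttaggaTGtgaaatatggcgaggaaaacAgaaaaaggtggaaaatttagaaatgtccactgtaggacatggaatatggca
Gm26870 second unit: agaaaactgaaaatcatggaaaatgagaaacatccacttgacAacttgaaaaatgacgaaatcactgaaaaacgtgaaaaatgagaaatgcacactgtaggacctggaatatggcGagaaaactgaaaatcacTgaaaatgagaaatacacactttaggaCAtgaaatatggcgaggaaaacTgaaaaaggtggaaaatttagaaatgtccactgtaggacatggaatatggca
At that shift 81.5% of the bases of Gm26870 match, and 62.4% to 65.2% of those of Gm10717, Gm10719, Gm10722 and Gm21738. Gm10800 and Gm10801, with the highest bulk levels of the models named, matched themselves best at 225 and 231 bases, at 56.3% and 52.7%. For comparison, the best self-match of Pax7 was 28.7%. Rn7s1 and Rn7s2, gene models of the RNA of the signal recognition particle with identical values, were at 1103, 1177 and 1095 TPM in bulk and found in 11 wells, with a mean of 30.2 TPM.

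In the other direction, Ubb had a mean of 6869 TPM in wells against 228 ± 37.7 TPM in bulk (SD, n = 3). Ribosomal protein genes shared this side. Of the 85 with at least 1 TPM in either format, 64 had a well mean above all 3 bulk libraries, beside 18.2% of all genes, and 7 below all 3, beside 27.4%. Their summed level was 35374, 34228 and 30359 TPM in bulk and 43647 to 143099 TPM in wells, with a median of 76674 TPM, so every well was above every bulk library. Of 30 nuclear genes of the respiratory chain, 27 had a well mean above all 3 bulk libraries. Cox6a1, a subunit of cytochrome oxidase, was at 138 TPM in bulk and 1638 TPM in wells, while Atp5b, of ATP synthase, went the other way with 2161 and 896 TPM.

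Of 12 heat shock genes, 6 were higher in wells by at least 1 on the log2 scale and 1 lower, beside 15.2% and 65.3% of all genes, and their median difference was 1.05. Among genes named by the size of their difference or after their values were seen, Mt1, a metal-binding metallothionein, was at 440, 383 and 170 TPM in bulk and at a median of 3259 and a highest of 42569 TPM in wells, while its neighbour Mt2 was at 1223, 3470 and 2681 TPM in bulk and at a median of 1073 TPM in wells. Tnfaip6, a hyaluronan-binding protein of inflammation, was found in 24 wells and Ankrd1, a stretch-responsive muscle protein, in 22, both with a median of 0 and with highest values of 7035 and 9341 TPM. Tnfrsf12a, the receptor of TWEAK, was at 77.4, 46.01 and 25.96 TPM in bulk and at a median of 349 TPM in wells. Immediate early genes, switched on within minutes by growth signals or injury, were higher in wells by at least 1 on the log2 scale for 8 of 24 (33.3%) and lower for 8, beside 15.2% and 65.3% of all genes. Examples are Fos with 1939 ± 114 TPM in bulk (SD, n = 3) and 4807 TPM in wells, Egr1 with 9764 ± 217 and 4018 TPM.

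The scale of these list differences depends on what is counted in the total. With TPM as deposited the median difference over all genes was -1.61 rather than -1.72. The median of the ribosomal list was then 0.53 rather than 1.42, and that of the immediate early list -0.60 rather than 0.13. The myogenic activation list turned from 0.18 to -0.49.

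The old libraries were not used by the rule and come from other mice. Of the 1044 genes, 312 (29.9%) had the same pattern there, at least 20 TPM in old bulk and under 1 TPM in old wells, beside 6.25% of all genes. Of the 371 members that reached 20 TPM in old bulk, 84.1% were absent in the 7 old wells. Of all genes that did, 42.1% were, and of the 6057 other than the members 39.5%. Of the 302 genes, 43 (14.2%) had the same pattern in the old libraries, beside 0.266% of all genes. Of the 105 that reached 20 TPM in old wells, 40.95% were absent in old bulk, beside 3.56% of all genes that did, and 2.30% of the 3129 others were. Genes are not independent replicates, so no interval and no p is given for these shares. A gene found in 0 of 7 wells may reach 1 TPM in up to 42.9% of such wells by counting error alone. This is again 3 divided by the number of wells, which is rough for so few wells.

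Single members showed both outcomes. Rpsa-ps2 was at a mean of 0 TPM in old bulk and found in all 7 old wells at a mean of 419 TPM, and Tsix was at 0.435 TPM in old bulk and found in all 7 at a mean of 90.7 TPM. Gjc3 was at 294 TPM and Mbp at 210 TPM in old bulk, both in 0 of 7 wells. Apod was at 1041 TPM in old bulk and 2.20 TPM in old wells, found in 1, so it missed the second limit. Snrpd2, in contrast, was at 22.5 TPM in old bulk, and 167 of the 302 genes were above 0 in at least 1 old bulk library. Old bulk libraries held 78, 112 and 99 of the 302 genes at 1 TPM or more, and young ones 2, 0 and 0. The young values chose the genes, so the low young counts follow from the rule. Of the 49 olfactory receptor members, 5 reached 20 TPM in old bulk.

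Genes near the limits show how narrow the boundary is. Cth, an enzyme of cysteine synthesis, and Gm38021 were just inside at 20.0 TPM in bulk, with 45.02, 9.65 and 5.39 TPM and with 21.7, 0 and 38.3 TPM in the libraries. Gm14991 at 18.02, 0 and 41.96 TPM and Gm26477 at 0, 0 and 59.98 TPM were just outside. In the wells Gm14845 and Gm23127 were just inside at 20.1 TPM, found in 7 wells and 1 well. Crry-ps and the ferritin pseudogene Ftl2 were just outside at 20.0 and 19.9 TPM, found in 10 and 4 wells.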

How the data were processed

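RNA of young, middle-aged and old mouse muscle stem cells was measured in bulk and in single-cell wells. Both deposited tables hold TPM, per the labels. Reads were aligned with STAR to mm10, per the submitters' processing notes. Not given in the sources used here are the quantifier, annotation, software versions and strandedness. As TPM keep no read counts, depth is unknown and no count model was used.

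Of the Ensembl gene rows, 43245 outside the 37 mitochondrial genes were analysed. Spike-in rows (92) and the mitochondrial rows were left out, and each column was rescaled to 1000000. The 2423 rows without an Ensembl ID stayed in that total but were not analysed, so the analysed genes sum to slightly less. Wells needed 1000 genes at 1 TPM. Abundant meant a mean of at least 20 TPM, absent under 1 TPM. Differences are of log2(TPM + 1) of the means. GENCODE vM21 held 42744 of the genes. Windows of 75 bases were compared between transcripts, and partners were sought with blastn 2.17.0. Scripts ran in Python 3.11.15 with scipy 1.17.1, pandas 2.3.3, matplotlib 3.10.9 and numpy 2.4.6. The classing was tested on simulated data. Shares of wells have exact Clopper-Pearson 95% intervals, which cover counting error between wells only.

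The format comparison has no test: it defined the genes, the tables were normalized separately and the wells come from 1 mouse per age. The genes and lists were chosen with earlier results of these data known. Named genes were the highest members found in all 3 libraries or in most wells, the highest means, members on the lists, the largest differences outside the classes, fixed marker genes and the nearest genes to each limit. Others are said to be chosen after their values were seen, and some genes that the rule names are not reported here. Alternatives changed both limits, the wells used, the scaling, the mean, the pseudocount and the libraries.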

Additional observations from a re-analysis of the deposited data

Results flagged for a closer look

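Among the 168 genes chosen to be named, the formats differed in opposite directions at the 2 ages for 4: the mean over wells lay on one side of every bulk library in young mice and on the other side in old mice. The same held for 1618 (7.54%) of the 21446 genes at 1 TPM or more in either young format. In each case the difference between the ages was not tested, and the wells are 1 mouse per age.

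Sirpa, the phagocyte receptor of Cd47, had a mean of 33.97 TPM in young bulk and was in 0 of 54 wells. In old libraries it was at 68.5, 19.2 and 22.1 TPM in bulk and at a mean of 70.9 TPM from 1 of 7 wells. Mrps16, a protein of the mitochondrial ribosome, was at 0 in all 3 young bulk libraries and at a mean of 33.9 TPM from 7 young wells, and in old libraries at 74.0, 30.8 and 11.8 TPM in bulk and in 0 wells. Has1, a hyaluronan synthase, was at 0 in young bulk and at a mean of 24.1 TPM from 6 wells, and in old libraries at 7.57, 6.32 and 7.08 TPM in bulk and in 0 of 7 wells. Cdkn1a, the cell cycle inhibitor p21, was at a mean of 57.7 TPM in young bulk and 209 TPM over wells, found in 31. In old libraries it was at 255, 212 and 166 TPM in bulk and at a mean of 55.4 TPM from 1 of 7 wells. Has1 and Cdkn1a were chosen after their values were seen.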

How the results depend on the processing

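No paired analysis was possible because the result comes from no test. The count of genes abundant in bulk and absent in wells, 1044 as reported, was 5721, 167 and 38 with an abundance minimum of 5, 50 and 100 TPM, 541 with TPM as deposited (388 of them among the 1044) and 1605 without the highest well of each gene. It stayed within 1.5 times of the reported count with an absence limit of 0.1 TPM, with 0 in every well, with all wells, with wells of 2000 or more genes, rescaled over the analysed genes and with the median of the bulk libraries. Leaving out 1 young bulk library gave 1071 to 1264. The members changed more than the count: without library 1, 2 and 3, 821, 734 and 867 of the 1044 remained. With the median of the bulk libraries 655 of the 1044 remained. The reverse count, 302 as reported, was 724, 126 and 48 with the 3 minimums, 104 with TPM as deposited (102 of them among the 302), 159 without the highest well of each gene, 621 with the median of the bulk libraries and 367 to 460 without 1 young bulk library.

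The share of the first class with the same pattern in old libraries, 29.9%, was 43.2%, 22.8% and 18.4% with the 3 minimums, 22.1% with an absence limit of 0.1 TPM, 20.3% with 0 in every well, 37.4% with wells of 2000 or more genes, 34.9% with TPM as deposited, 45.5% without the highest well of each gene and 25.2% to 31.4% without 1 young or old bulk library. The share of the second class, 14.2%, was 25% with a minimum of 100 TPM and 9.57% to 17.5% without 1 young or old bulk library. Old libraries were left out in an alternative added after the data were seen.

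The correlation between formats, 0.564, was 0.438 with the median of the bulk libraries, 0.401 and 0.684 with a pseudocount of 0.1 and 10, 0.699 over all genes, 0.262 over genes of 20 TPM or more and 0.477 to 0.532 without 1 young bulk library. Of the 80 genes checked one by one, Myod1 changed direction, from 3.37 to -0.77 in wells with 2000 or more genes, and Cdh15 and Itga7, whose formats lay close, also changed sign in some settings. The cause of these moves was not tested, beyond what each setting changes by construction. The depth of the bulk libraries is unknown, and an exact 0 there may be a failed estimate. The wells come from 1 mouse per age and 7 wells of the old one, so differences between mice cannot be told apart from differences between formats.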
